A study of Solanum virginianum with 24 samples.

Results

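The transcripts described here are those whose signal in eggplant fruit was highest at 20 days post anthesis (dpa), between the growing and the ripe stages. For each later stage the mean of its 3 arrays was taken minus the mean of the 3 arrays of 0 dpa normalised with it, a log2 difference from 0 dpa. Probe sets, the groups of probes that read 1 transcript, were chosen by these measured differences. A probe set was a member if its difference was at least 1 at 20 dpa and exceeded those of 5, 10 and 50 dpa by at least 0.7, a distance called the margin below. Of 10101 non-control probe sets, 66 met the rule. They were 20.3% of the 325 probe sets (3.22% of all) with a difference of at least 1 at 20 dpa. Without the margin, 148 probe sets (1.47%) reached 1 and had 20 dpa as their highest stage. The rule used the comparison of all 4 later stages with 0 dpa, so the members' values in these comparisons, and those of 20 dpa against the other stages, are given as a description, with no test.

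Fruit of the eggplant cultivar PPL, from hand-pollinated flowers of glasshouse plants, was sampled at 0, 5, 10, 20 and 50 dpa, with 3 arrays a stage that the labels call biological replicates. The series title names Solanum melongena, and the sample records name Solanum virginianum as the organism. No treatment, genotype or second cultivar was compared. The array was made for tomato, so eggplant transcripts were read by probes of another species, and genes carry their tomato names. Because every probe set had been centred before deposit, the values show differences between stages and no level. The RNA came from whole fruit, in which fewer cells of a type and less RNA per cell cannot be told apart.

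After pollination an eggplant fruit first grows by cell division and then by cell expansion, while the seeds form inside it, and ripening follows. Ethylene, a gaseous hormone of ripening and stress, is made from ACC, and ACC oxidase carries out the last step. Fruit walls are loosened and later taken apart by enzymes such as beta-galactosidases, which remove galactose from wall polysaccharides, and endo-beta-mannanases, which cut mannan chains in fruit and seed walls.

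Only 4 of the 66 members carried a gene symbol in the platform annotation (6.06%), as did 909 of the 10101 non-control probe sets. They were ACO5, an ACC oxidase gene, MAN2, an endo-beta-mannanase gene, TBG4, a beta-galactosidase gene, and LOC543933, which has no descriptive symbol. The other 62 are known here by probe set ID only. Beyond the pair with the highest values at 20 dpa, the IDs given were singled out after their values were seen.

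The members' median difference from 0 dpa was 0.15 at 5 dpa, 0.30 at 10 dpa, 1.83 at 20 dpa and 0.04 at 50 dpa. Over all non-control probe sets the medians at these stages lay between -0.03 and 0.02. At 20 dpa the members ran from 1.07 to 7.59, with 31 of them at 2 or more, 15 at 3 or more and 6 at 4 or more. The margin had a median of 1.29 and a highest value of 4.10, and it reached 2 in 12 members. The second-highest of the 4 stages was 10 dpa in 26 members, 50 dpa in 26 and 5 dpa in 14.

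**Figure D1:**
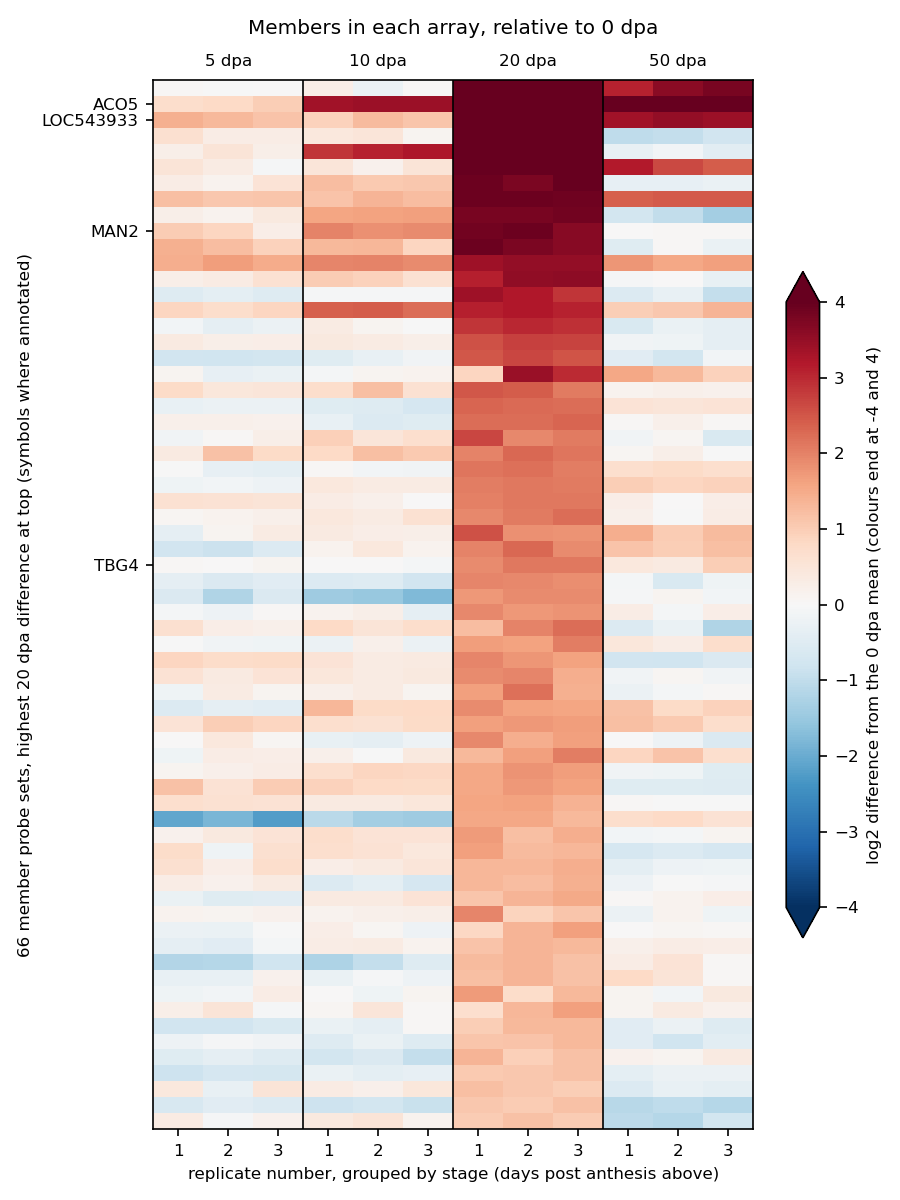
Each row is 1 of the 66 members and each column 1 array of 5, 10, 20 or 50 dpa; colour gives the log2 difference from the 0 dpa mean of the same normalisation set, and colours end at -4 and 4. The 20 dpa block is red in every row, from 1.07 to 7.59 as stage means, while the other stages are mostly pale.

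In 50 of 66 members the difference stayed under 1 at each of 5, 10 and 50 dpa, with no lower limit set. It was within 0.5 of 0 in 43 members at 5 dpa, 37 at 10 dpa and 39 at 50 dpa, and in 17 at all 3 stages. At 5 dpa 4 members had a difference of at least 1, where 2.52% of all probe sets did. At 10 dpa 11 members did (3.48% of all probe sets), and at 50 dpa 10 did (4.34% of all probe sets). Since the rule used these contrasts, nothing is read from the counts. Of the 11 at 10 dpa, 5 were also at 1 or more at 50 dpa and 6 were not. A further 5 reached 1 at 50 dpa but not at 10 dpa. Signals under 0 dpa occurred too, with 2 members at -1 or lower at each of 5 dpa (1.82% of all probe sets), 10 dpa (1.90%) and 50 dpa (4.30%), and 8 members were below 0 dpa at all 3 of these stages.

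The arrays of a stage lay close together. The median SD among the 3 arrays of 20 dpa was 0.122 over the members and 0.110 over all probe sets, on the log2 scale. All 3 arrays of 20 dpa were above the 3 of 0 dpa in 66 of 66 members, and above all 9 arrays of 5, 10 and 50 dpa in 65, a separation found in 3.88% of all probe sets and largely fixed by the rule. The exception was LesAffx.58104.1.S1_at, with 0.86, 3.46 and 3.00 in replicates 1, 2 and 3 at 20 dpa. Replicate 1 of 20 dpa was thus far below the other two for this probe set and overlapped the 50 dpa arrays, which had 1.55, 1.28 and 0.93. Among the arrays of 20 dpa, replicate 1 was the highest in 19 members, replicate 2 in 26 and replicate 3 in 21. Over all probe sets these shares were 36.6%, 31.7% and 31.7%, and nothing is read from the counts. When each array was left out in turn, 55 of 66 members met the rule in all 15 settings.

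ACO5 had the highest difference among the annotated members. Relative to 0 dpa its signal was 0.70, 0.80 and 1.00 in the 3 arrays of 5 dpa, 3.37, 3.41 and 3.41 at 10 dpa, 6.36, 6.36 and 6.36 at 20 dpa, and 4.83, 4.73 and 4.82 at 50 dpa. The 0 dpa arrays in the set of 20 dpa spread from -0.27 to 0.15. The stages did not overlap, and each array of 20 dpa was above every other array. As stage means the signal was 1.78-fold that of 0 dpa at 5 dpa, 10.5-fold at 10 dpa, 82.1-fold at 20 dpa and 27.7-fold at 50 dpa, so that 75.4% of the log2 difference of 20 dpa was still there at 50 dpa.

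The other ACC oxidase genes with a symbol did not share this course. ACO4 was at -1.17, -0.68, -1.33 and -1.91 at 5, 10, 20 and 50 dpa, and lower at 20 dpa than at 0 dpa (limma adjusted p = 4.45e-05). The 3 probe sets of ACO6 were at -2.27, -1.54 and -1.08 at 20 dpa, all lower than at 0 dpa (limma adjusted p = 3.70e-05, 0.000552 and 3.95e-05). ACO4 and ACO6 were thus below 0 dpa at each of the 4 stages, where ACO5 was above it at each.

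The list of ethylene synthesis and response genes held 46 probe sets for 42 genes, of which ACO5 alone was a member. At 20 dpa against 0 dpa, limma called 4 of the 46 higher and 16 lower at an adjusted p under 0.05, with a list median of -0.16. Over all probe sets 17.8% were called higher and 20.1% lower, with a median of -0.02. ACO5 is 1 of the 4 called higher, and the rule chose it from this contrast. ETR5, an ethylene receptor gene, was at -1.11 at 20 dpa against 0 dpa (SE 0.0811, limma adjusted p = 1.72e-05). In the methods' t-test, the unpaired test that the series text names, 2 of the list's probe sets were called higher after Benjamini-Hochberg adjustment.

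By stage means, MAN2 was higher at each stage up to 20 dpa and near its 0 dpa signal at 50 dpa. Its arrays had 1.00, 0.85 and 0.28 at 5 dpa, 1.99, 1.84 and 1.91 at 10 dpa, 3.86, 3.93 and 3.63 at 20 dpa, and 0.00058, 0.04 and 0.05 at 50 dpa. At 5 dpa the arrays overlapped the 0 dpa arrays of their set, the highest of which was at 0.44. The arrays of 20 dpa stood clear of all others. Those of 50 dpa lay inside the spread of the 0 dpa arrays of their set, which ran from -0.34 to 0.54. The stage mean was 14.0-fold that of 0 dpa at 20 dpa and 1.02-fold at 50 dpa, and the 20 dpa signal was 13.7-fold that of 50 dpa. In the set of 20 dpa the spread at 0 dpa was wide for this gene (SD 0.622, n = 3, against a median of 0.140 over the members). It was wider still in the set of 10 dpa (SD 0.844, n = 3).

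The other endo-beta-mannanase genes with a symbol, MAN1 and Man4, were at 0.15 and 0.07 at 20 dpa and did not pass in limma (adjusted p = 0.241 and 0.634). Over all 4 stages MAN1 stayed between -0.04 and 0.15, and Man4 between -0.12 and 0.17. In tomato, MAN2 is known from the seed, where its product acts on the endosperm wall during germination. The list meant as seed maturation markers held only 3 probe sets. Of these, ER5 was also in the ethylene list and ltpg1 in a list of lipid transfer and cuticle genes. The list is thus a weak gauge of seed transcripts. LEA14 was at -0.07, ER5 at 0.42 and ltpg1 at -0.28 at 20 dpa, and 1 of the 3 passed (ER5, limma adjusted p = 0.0339). Of 6 pollen and anther probe sets 0 passed at 20 dpa in limma (1 at an unadjusted p under 0.05), with differences from -0.27 to 0.06. The part of seed or pollen transcripts in the members' signal was not tested.

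TBG4 stood near its 0 dpa signal until 10 dpa and was high at 20 dpa. The arrays had 0.05, 0.0028 and 0.11 at 5 dpa, 0.0012, 0.03 and -0.07 at 10 dpa, 1.90, 2.10 and 2.11 at 20 dpa, and 0.41, 0.37 and 0.99 at 50 dpa. At 5 and 10 dpa the arrays overlapped those of 0 dpa, those of 20 dpa were above all others, and those of 50 dpa lay between, with replicate 3 apart from the other two. The stage mean was 4.11-fold that of 0 dpa at 20 dpa, and 28.8% of the log2 difference was left at 50 dpa. In tomato, the TBG4 product is a beta-galactosidase linked to fruit softening.

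Of the other 6 beta-galactosidase genes on the array, only TBG3 also had its highest mean of the later stages at 20 dpa. It was at 0.17, -0.13, 0.65 and -1.16 at 5, 10, 20 and 50 dpa, and thus below 0 dpa at 50 dpa, where TBG4 was above. Against 0 dpa, TBG3 (limma adjusted p = 0.00520) and TBG7 (0.30, limma adjusted p = 0.0424) were higher at 20 dpa. TBG1 (-0.71, limma adjusted p = 0.00108) and TBG5 (-0.81, limma adjusted p = 0.000126) were lower than at 0 dpa. TBG2 (0.31, adjusted p = 0.0713) and TBG6 (-0.01, adjusted p = 0.923) did not pass in limma. TBG7 had its highest mean at 10 dpa, with 1.65, and TBG2 at 50 dpa, with 0.84.

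**Figure D2:**
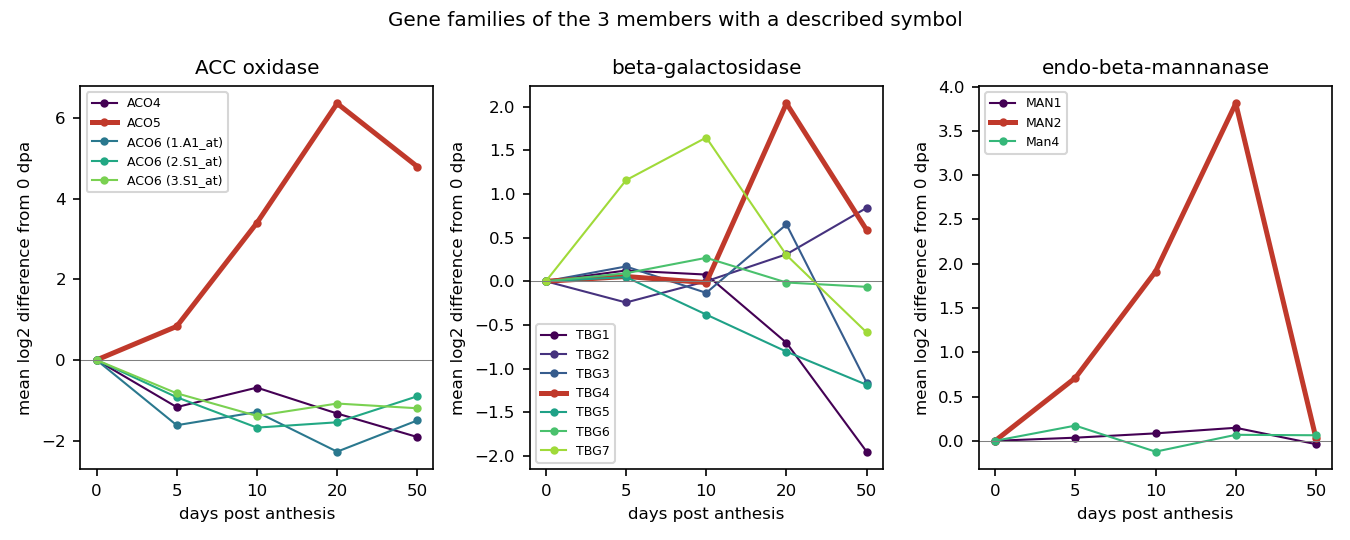
Mean log2 difference from 0 dpa (vertical axis) by stage (horizontal axis, evenly spaced) for the ACC oxidase, beta-galactosidase and endo-beta-mannanase genes with a symbol, 1 line per probe set and the members in bold red. ACO5 reaches 6.36, TBG4 2.04 and MAN2 3.81 at 20 dpa, above every other line of their panels at that stage.

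The cell wall list held 45 probe sets, MAN2 and TBG4 among them as the only members. At 20 dpa 17 of the 45 were called higher and 8 lower in limma, with a median of 0.15, where 17.8% of all probe sets were called higher and 20.1% lower. MAN2 and TBG4 are among the 17, and the rule chose both from this contrast. With the methods' t-test 9 were called higher. Among the list's non-members, the smallest p belonged to genes lower at 20 dpa than at 0 dpa. They were Cel1, an endo-beta-1,4-glucanase gene (-3.30, limma adjusted p = 3.59e-08), EXPA4, an expansin gene (-2.43, limma adjusted p = 3.91e-07), and XTH1, a xyloglucan-modifying gene (-1.67, limma adjusted p = 1.27e-06). Of the non-members called higher, CEL8 had the smallest p (1.46, limma adjusted p = 2.48e-06). The highest stage of CEL8 was 20 dpa, with a margin of 0.444. The remaining 12 of the 15 lists, with 100 genes on the array, held 0 members. Photosynthesis was one of them, with 7 of 7 probe sets called higher at 20 dpa in limma and a median of 2.45. With 66 members among 10101 probe sets, few would fall in lists of this size, so nothing is read from the 0. Of the 3 lists with a member, that of endo-beta-mannanases lies within the cell wall list, so MAN2 counts in both.

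LOC543933 was above 0 dpa from the first stage on. Its arrays had 1.43, 1.31 and 1.15 at 5 dpa, 0.91, 1.27 and 1.11 at 10 dpa, 4.59, 4.40 and 4.56 at 20 dpa, and 3.37, 3.50 and 3.42 at 50 dpa. Arrays of 5 and 10 dpa overlapped, and those of 20 dpa were above those of 50 dpa. The stage mean was 22.9-fold that of 0 dpa at 20 dpa and 10.8-fold at 50 dpa. With ACO5, which kept a similar share of its log2 difference, it is among the 10 members that were still at least 1 log2 unit above 0 dpa in the ripe fruit.

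Among the 62 members without a symbol, LesAffx.71476.1.S1_at had the highest difference at 20 dpa of all probe sets on the array. Its arrays had 0.04, -0.02 and 0.01 at 5 dpa, 0.26, -0.24 and 0.04 at 10 dpa, 7.57, 7.69 and 7.52 at 20 dpa, and 3.08, 3.61 and 3.79 at 50 dpa. It thus stayed at its 0 dpa signal through 10 dpa and was 193-fold above it at 20 dpa and 11.3-fold at 50 dpa. Les.5366.1.S1_at had 0.63, 0.31 and 0.28 at 5 dpa, 0.42, 0.48 and 0.12 at 10 dpa, 4.37, 4.34 and 4.48 at 20 dpa, and -1.02, -0.94 and -0.75 at 50 dpa. Its 20 dpa signal was 39.4-fold that of 50 dpa, where it stood below every 0 dpa array of its set.

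**Figure D3:**
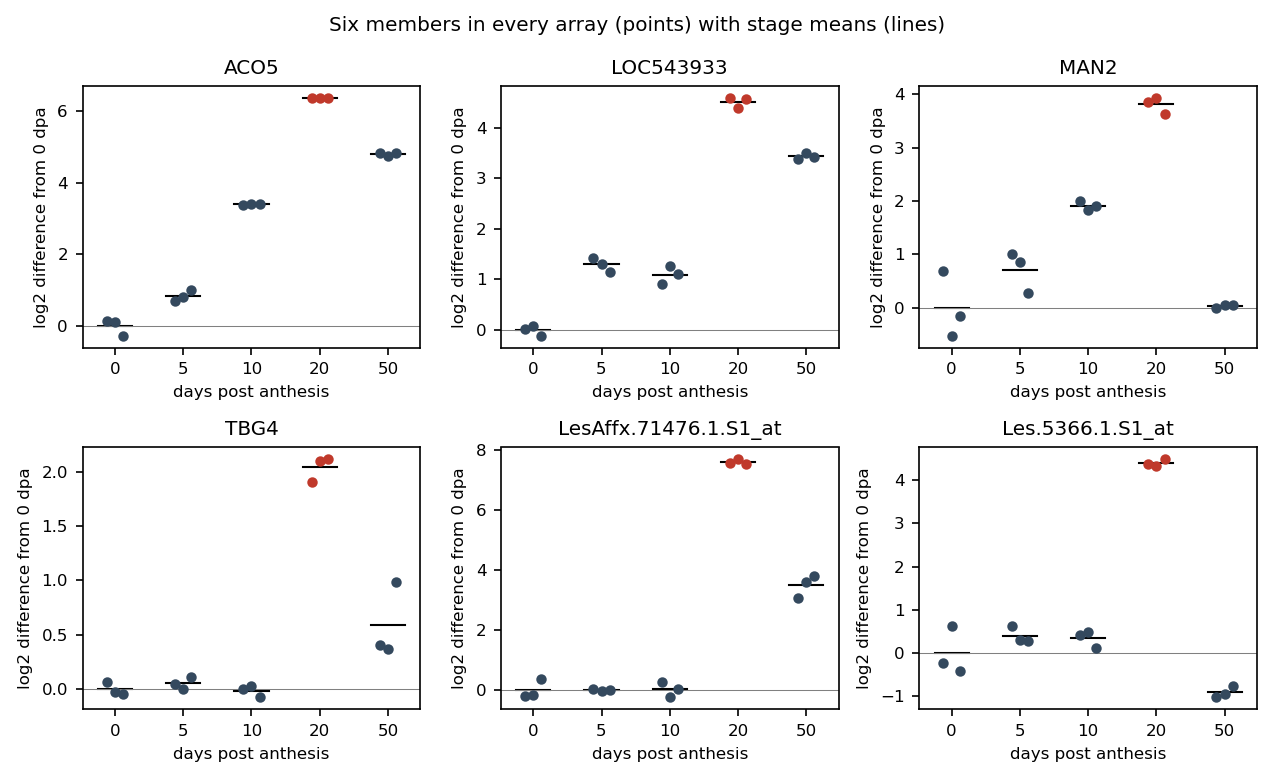
Points are single arrays and lines stage means of the log2 difference from 0 dpa (vertical axes differ) for the 4 members with a symbol and the pair without one that was highest at 20 dpa; the 0 dpa points are those normalised with 20 dpa. In each panel the 3 points of 20 dpa, in red, lie above all other points, and MAN2 and Les.5366.1.S1_at are near or below 0 at 50 dpa.

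Other courses occurred among the members without a symbol. Les.5631.1.S1_at was below 0 dpa at 5 dpa (-2.07, -1.83 and -2.24) and 10 dpa (-1.08, -1.35 and -1.43), and above it at 20 dpa (1.55, 1.54 and 1.29) and 50 dpa (0.71, 0.79 and 0.58). Les.206.1.S1_at had means of -0.79 at 5 dpa, -1.58 at 10 dpa, 1.84 at 20 dpa and -0.02 at 50 dpa. LesAffx.823.1.S1_at, with means of 0.33, 3.05, 4.35 and -0.27, was high at both 10 and 20 dpa. The peak at 20 dpa thus came after a signal below 0 dpa in the first pair and after a raised one in LesAffx.823.1.S1_at.

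The differences between 10 and 5 dpa and between 50 and 10 dpa were tested with limma over all 10101 probe sets. The rule set no value for these differences, but it used the signals of all 3 stages by capping them, so the members' tests are not independent of how they were chosen. Shares over all probe sets stand beside the members' counts of each single comparison, and nothing is read from setting one against the other. Arrays entered as differences from their set's own 0 dpa mean, so these tests cross tables that were normalised separately. At 10 dpa against 5 dpa, 20 of 66 members were higher and 7 lower at an adjusted p under 0.05, or 30.3% and 10.6%. Over all probe sets 10.3% were higher and 12.2% lower. A fit that kept the error of both 0 dpa means, taking their shared arrays as separate, called 13 members higher and 3 lower, against 4.71% and 5.36% of all probe sets. The methods' t-test called 12 and 2 members, and 522 and 523 of all probe sets. The members' median difference was 0.13, against -0.01 over all probe sets.

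ACO5 was higher at 10 dpa than at 5 dpa by 2.57 (SE 0.0834, limma adjusted p = 2.63e-09) and LesAffx.823.1.S1_at by 2.72 (SE 0.132, limma adjusted p = 1.23e-07). MAN2 was higher at 10 dpa by 1.20 (SE 0.150, limma adjusted p = 0.000115), with an adjusted p of 0.139 when the error of the 0 dpa means was kept and 0.0527 in the methods' t-test. TBG4 (-0.07, limma adjusted p = 0.764) and LOC543933 (-0.20, limma adjusted p = 0.194) did not pass. Les.206.1.S1_at was lower at 10 dpa (-0.79, SE 0.153, limma adjusted p = 0.00276). With the error of the 0 dpa means kept, its SE was 0.217 (limma adjusted p = 0.0374). That of ACO5 was then 0.206 (limma adjusted p = 1.28e-05) and that of LesAffx.823.1.S1_at 0.175 (limma adjusted p = 4.11e-06). In 39 of the 66 members no difference between 10 and 5 dpa passed.

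At 50 dpa against 10 dpa, 20 members were higher and 28 lower, or 30.3% and 42.4%. Over all probe sets 25.7% were higher and 21.3% lower. With the error of the 0 dpa means kept, 21 were higher and 25 lower, against 19.0% and 16.9% of all probe sets. Higher in ripe fruit than at 10 dpa were LesAffx.71476.1.S1_at by 3.48 (SE 0.160, limma adjusted p = 8.99e-10), LOC543933 by 2.33 (SE 0.105, limma adjusted p = 7.21e-10), ACO5 by 1.40 (SE 0.0834, limma adjusted p = 1.25e-08) and TBG4 by 0.60 (SE 0.138, limma adjusted p = 0.00268). Without replicate 3 of 50 dpa the TBG4 difference was 0.40 (limma adjusted p = 0.00375), and its adjusted p was 0.0904 in the methods' t-test. Lower were LesAffx.823.1.S1_at (-3.33, limma adjusted p = 2.01e-10), MAN2 (-1.88, SE 0.150, limma adjusted p = 2.34e-07) and Les.5366.1.S1_at (-1.24, SE 0.121, limma adjusted p = 1.59e-06). These SEs leave out the error of the 0 dpa means. With it kept, the SE was 0.455 for MAN2 (limma adjusted p = 0.00530) and 0.237 for Les.5366.1.S1_at (limma adjusted p = 0.000993). It was 0.315 for LesAffx.71476.1.S1_at (limma adjusted p = 1.61e-06), 0.225 for ACO5 (limma adjusted p = 0.000272) and 0.192 for TBG4 (limma adjusted p = 0.0256).

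Setting both comparisons side by side, which share the 10 dpa arrays, 20 members passed in both, 7 at 10 against 5 dpa alone, 28 at 50 against 10 dpa alone and 11 in neither. MAN2 was among 10 members higher at 10 dpa than at 5 dpa and lower at 50 dpa than at 10 dpa, and ACO5 among 4 that were higher in both. The 10 dpa arrays enter the comparisons with opposite sign. Shares of all probe sets in these combinations were not computed, so nothing is read from the counts.

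**Figure D4:**
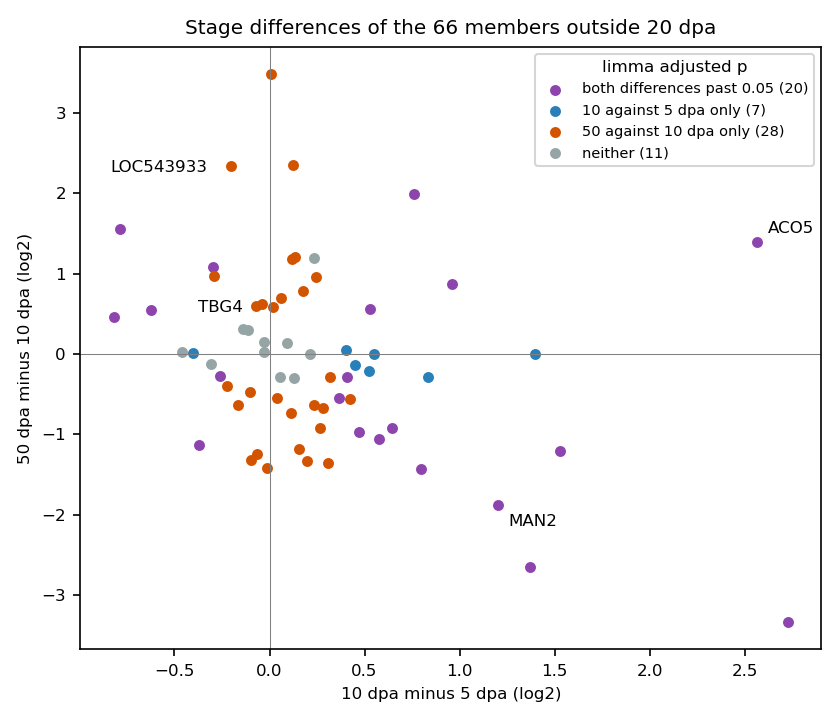
Each point is 1 of the 66 members, with its log2 difference of 10 minus 5 dpa on the horizontal and of 50 minus 10 dpa on the vertical axis, coloured by which limma adjusted p was under 0.05. ACO5 lies at 2.57 and 1.40, MAN2 at 1.20 and -1.88, and LOC543933 and TBG4 lie close to 0 on the horizontal axis.

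The probe set IDs also show which probe sets the array design grouped together. The first number in an ID marks a transcript cluster of the array design. The 66 members came from 64 clusters, and 15 of these had several probe sets on the array, 25 of which were not members. Those 25 had a median difference of 0.30 at 20 dpa, from -0.13 to 1.24, and 20 dpa was the highest stage in 13 of them, as in 15.7% of all probe sets. By definition they missed the rule, which limits these same values, so nothing is read from that share. The LesAffx.344 cluster held more of the 25 than any other. Cluster mates can hybridise different transcripts or strands, and they were read on the same arrays.

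In 2 clusters both of a pair were members. Les.966.1.S1_at had 2.87, 3.01 and 2.93 at 20 dpa and Les.966.3.A1_at 0.98, 1.29 and 1.29, and both were under 0 dpa at 50 dpa (-0.40 and -0.40 as means). LesAffx.34986.1.A1_at had 2.56, 2.72 and 2.70 and LesAffx.34986.1.S1_at 0.67, 1.31 and 1.65. The third probe set of the first cluster, Les.966.2.S1_at, was at 0.23 at 20 dpa. Other mates stood apart from their member, as in the Les.3186 cluster, with 3.82 for the member and 0.38 for its mate, and in LesAffx.37715, with 3.91 and 0.27. The highest non-member was Les.2668.2.A1_at at 1.24, beside a member at 2.06.

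IDs that begin with LesAffx made up 51.5% of the members and 41.3% of all probe sets, and IDs of type A1 10.6% and 23.5%. Of the array's own control probe sets, 0 met the values of the rule. The 42 spike controls, which read added RNA, had median differences of 0.89, -0.26, -0.14 and -0.25 at 5, 10, 20 and 50 dpa. Another set of 9 added controls, the bio and cre probe sets, had medians of -0.03, -0.48, -0.21 and -0.14 at these stages. The part of these shifts in the differences of 10 against 5 dpa was not tested. Other control probe sets read both ends of actin and GAPDH transcripts, and the signal of the 5' end minus that of the 3' end is a measure of RNA quality. Relative to 0 dpa it was 1.09, 0.37, 0.52 and 0.39 for actin at 5, 10, 20 and 50 dpa, and 0.77, 0.69, 0.95 and 0.32 for GAPDH. For GAPDH the highest value was that of 20 dpa, and its part in the members' peak was not tested.

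Near the limits of the rule, the member with the smallest margin was Les.5264.1.S1_at, at 1.68 with a margin of 0.701. Just outside were Ve2, with 1.04 at 20 dpa and a margin of 0.695, and LOC544153, with 1.37 and 0.691. The lowest difference inside was 1.07, of LesAffx.50170.1.S1_at, and the highest one outside with a sufficient margin was 0.981, of Les.4731.1.S1_at.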

How the data were processed

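The authors made the deposited log2 values with RMA in GeneSpring GX 11.5, per the series design text and the submitters' processing notes. The table has 24 columns for 15 distinct arrays, because the 3 arrays of 0 dpa were normalised anew with each later stage (4 sets of 6 columns). The median of a probe set within a set was 0 (to 5e-07), so signal over background is unknown and no filter on dim probes was possible. That positive means higher expression was assumed. The number of arrays limits the precision.

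Stages were fitted against their own 0 dpa arrays (6 arrays), and stage differences over 12 arrays relative to the 0 dpa means, with limma 3.58.1 (lmFit, eBayes, two-sided) in R 4.3.3 and Benjamini-Hochberg adjustment over 10101 probe sets (threshold 0.05). The stage fit leaves out the error of the 0 dpa means, so a fit that keeps it, added after seeing the data, is given beside it. That fit takes the 0 dpa columns of both sets as separate, though they come from the same arrays. Deviations of the same 0 dpa array correlated at 0.625 to 0.714 between sets, so neither fit gives the exact error. If replicates were not separate fruits, p-values measure technical spread.

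The members and gene lists were chosen with earlier results of these data known. All members with a symbol were named, both highest at 20 dpa without one, up to 4 probe sets by smallest p from each list with a member, and the other genes of the named families. Alternatives were column centring, medians over arrays, other margins, robust eBayes, other sets of arrays, a replicate block, the methods' t-test (the unpaired test of the series text) and leaving out each array. Symbols came from the platform annotation of 2007, which gives 909 probe sets 1 symbol. Sequences were not used here.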

Additional observations from a re-analysis of the deposited data

Results flagged for a closer look

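Differences between the effects of 2 stages against 0 dpa passed in limma for 8 comparisons of the 4 members with a symbol and the pair without one that was highest at 20 dpa, in tests that are not independent of the rule. ACO5 differed by 2.57 at 10 against 5 dpa and by 1.40 at 50 against 10 dpa, and MAN2 by 1.20 and -1.88. At 50 against 10 dpa the difference was 2.33 for LOC543933, 0.60 for TBG4, 3.48 for LesAffx.71476.1.S1_at and -1.24 for Les.5366.1.S1_at. Over the members, 26 such differences, in 25 probe sets, joined stages whose arrays all lay on opposite sides of the 0 dpa mean. Of these differences, 7 were at 10 against 5 dpa and 19 at 50 against 10 dpa. Their share over all probe sets was not computed, so nothing is read from the count. Outside the main measurement, the probe set for the 5' end of the GAPDH control was 1.12 higher at 20 dpa than at 0 dpa, and 1.06 higher at 10 dpa.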

How the results depend on the processing

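Of 482 values recomputed under an alternative, 452 were classed as keeping direction and size or side of the threshold. A further 27 moved, 3 no longer passed and 0 reversed. The 452 include values that could not change, such as differences at 20 dpa without an array of 5, 10 or 50 dpa. They also include the step from 66 to 45 members at a margin of 1, so the tally overstates stability. At 10 against 5 dpa, 2269 probe sets were called, against 1017 with the error of the 0 dpa means kept and 1045 in the methods' t-test. The members called were then 13 higher and 3 lower with that error kept, and 12 higher and 2 lower in the methods' t-test, which also called 2 ethylene and 9 cell wall probe sets higher at 20 dpa. The 3 that no longer passed were MAN2 at 10 against 5 dpa in both of these and TBG4 at 50 against 10 dpa in the methods' t-test, with adjusted p over all alternatives of 9.67e-05 to 0.139 and 0.000959 to 0.0904. Leaving out 1 array at a time gave 63 to 68 members, and 17 to 18 members higher and 4 to 7 lower at 10 against 5 dpa, with 4 without replicate 3 of 10 dpa. A margin of 0.5 gave 77 members, a margin of 1 gave 45, and medians over arrays gave 64, of which 57 were among the 66.

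Same-numbered replicates of different stages had deviations that correlated at -0.0313 to 0.102. The labels do not say whether they shared a plant, harvest or batch, and these correlations cannot settle it. With the replicate block 2220 probe sets were called at 10 against 5 dpa, 4718 at 50 against 10 dpa and 3725 at 20 against 0 dpa, and the members called were 20 higher and 7 lower, and 20 higher and 28 lower, as without it. Signal over background could not be assessed, so which members are near the array's floor is not known.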
